A study of Mus musculus with 96 samples.

Results

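Blood vessel endothelial genes were followed across 2 brain regions, nucleus accumbens (NAc) and prefrontal cortex (PFC), in mouse lines that separate sex chromosomes from gonads. They are 10 genes, chosen by cell type, as markers of endothelium, and found by symbol among 19918 measured genes. Earlier values of these libraries were known when they were chosen, among them the Ramp2 difference by gonad type in the NAc and the list's median for chromosomes in the PFC, so these are given as descriptions and support nothing. The list holds the junction and adhesion genes Cldn5, Cdh5, Pecam1 and Esam, the receptor genes Flt1, Kdr, Tek and Ramp2, and the surface and transport genes Ly6c1 and Slco1a4. All 10 passed the filter on low counts in both regions. The stressed animals had restraint in 3 sessions of 1 hour, on alternating days within 6 days (subchronic variable stress, SCVS), and the controls had no stress. They were of 4 genotypes: XXSry mice carry XX chromosomes and an Sry transgene and have testes, XX mice have ovaries, XY-Sry mice carry a Y chromosome without Sry (Y-) together with the transgene and have testes, and XY- mice have ovaries. Stressed and control animals numbered 6 and 6 for XXSry, 6 and 5 for XX, 6 and 6 for XY-Sry, and 6 and 7 for XY-. Each of the 48 animals gave a library of polyadenylated RNA from a tissue punch of each region, and the animals belonged to 3 cohorts. The comparisons ask how brain region, stress, sex chromosomes and gonads relate to the level of these genes. A punch holds all cell types of the tissue, so fewer endothelial cells and less RNA of a gene per endothelial cell cannot be told apart.

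Endothelial cells line the blood vessels, and in the brain they form the blood-brain barrier: tight and adherens junctions seal neighbouring cells to each other, and transporters carry selected compounds across them. Vascular endothelial growth factor (VEGF) and the angiopoietins, made partly by surrounding cells, act on receptor kinases that endothelial cells carry and steer the growth and stability of vessels. Wnt ligands from neural cells keep the barrier program in place.

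Promoter windows of 300 bases, 250 before the gene's start and 50 from it, were read from RefSeq (GRCm38.p6) for 6 of the 10 genes. Those of Cldn5, Flt1, Kdr and Tek are shown, 1 gene of tight junctions and 3 of receptor kinases. They belong to those whose levels moved together most between PFC libraries, as described last. Capitals mark matches, on either strand, to 1 of 4 short motifs. The ETS motif searched was AGGAAG, the core of many sites of that factor family. For SOX factors the letters searched were AACAAT. For GATA factors the search used AGATAA. The TATA box was searched as TATAAA. No matches overlap in the windows shown.
Cldn5, chr16:18776597-18776896, plus strand: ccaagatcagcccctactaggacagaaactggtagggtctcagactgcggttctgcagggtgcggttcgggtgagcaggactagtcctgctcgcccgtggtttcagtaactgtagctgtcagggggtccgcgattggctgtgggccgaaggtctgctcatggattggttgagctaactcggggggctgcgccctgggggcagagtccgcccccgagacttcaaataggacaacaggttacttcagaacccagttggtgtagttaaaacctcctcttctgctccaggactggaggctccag
Flt1, chr5:147725962-147726261, minus strand: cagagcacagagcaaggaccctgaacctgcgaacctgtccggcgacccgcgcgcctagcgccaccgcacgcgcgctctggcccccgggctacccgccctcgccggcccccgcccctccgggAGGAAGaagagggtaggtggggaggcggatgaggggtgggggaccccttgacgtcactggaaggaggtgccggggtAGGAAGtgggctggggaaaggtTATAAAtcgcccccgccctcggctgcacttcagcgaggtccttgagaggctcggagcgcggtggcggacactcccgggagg
Kdr, chr5:75978406-75978705, minus strand: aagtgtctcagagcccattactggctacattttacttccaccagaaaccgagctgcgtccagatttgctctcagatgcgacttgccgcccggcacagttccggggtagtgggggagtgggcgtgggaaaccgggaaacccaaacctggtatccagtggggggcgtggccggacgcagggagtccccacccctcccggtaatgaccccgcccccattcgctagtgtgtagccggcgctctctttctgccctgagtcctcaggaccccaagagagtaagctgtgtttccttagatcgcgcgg
Tek, chr4:94739039-94739338, plus strand: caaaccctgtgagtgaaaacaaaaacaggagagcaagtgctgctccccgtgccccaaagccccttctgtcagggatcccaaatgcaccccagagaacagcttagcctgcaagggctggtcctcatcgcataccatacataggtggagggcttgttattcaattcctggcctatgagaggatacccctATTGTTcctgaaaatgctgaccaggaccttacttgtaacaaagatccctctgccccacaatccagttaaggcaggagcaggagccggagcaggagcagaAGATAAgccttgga
The Flt1 window held 2 ETS matches and 1 TATA box match, and the Tek window held 1 SOX match, on the reverse strand, and 1 GATA match. The windows of Cldn5 and Kdr held no match. Of all 32851 promoter windows of the same length, 35.4% held the ETS motif, 10.7% the SOX motif, 11.2% the GATA motif and 13.6% the TATA box. Of the 7 windows of the 6 genes, Ly6c1 having 2 that overlap, the numbers in that order were 3, 2, 1 and 2.

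Total counts per library ran from 45890551 to 120798601 in the NAc and from 67551546 to 104387920 in the PFC. The 10 genes together took 0.0243 ± 0.00106% of all counts in NAc libraries and 0.0248 ± 0.00183% in PFC libraries (SD, n = 48 each). The lowest count of any of them in a library was 267 in the NAc and 565 in the PFC, so none of the values below rests on a few reads. Xist and the Y-linked genes followed the labelled chromosomes in all 96 libraries, and no pair of libraries held identical counts. The regions carried their labels: Gad2, a marker of inhibitory neurons, averaged 900.0 CPM (counts relative to the TMM-scaled library total) in the NAc and 202.0 CPM in the PFC, and Slc17a7, a marker of cortical excitatory neurons, 289.0 in the NAc and 1510 in the PFC.

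The genes lie on several chromosomes of the GRCm38 build, and all are protein-coding. The junction genes are Cldn5 (ENSMUSG00000041378, chr16:18776847-18778262), Cdh5 (ENSMUSG00000031871, chr8:104101625-104144511), Pecam1 (ENSMUSG00000020717, chr11:106654217-106750628) and Esam (chr9:37528078-37538319). The receptor genes are Flt1 (chr5:147561604-147726011), Kdr (chr5:75932827-75978458), Tek (chr4:94739289-94874976) and Ramp2 (chr11:101246028-101259546). Ly6c1 is at chr15:75044018-75048830 and Slco1a4 at chr6:141805440-141856199. None overlaps a measured gene on the opposite strand. Ramp2 shares 1103 exonic bases with Vps25 on its own strand, and how reads of the shared bases were assigned is not known, so its level is uncertain. Vps25 was listed with a mean of 0.318 CPM in the NAc and 0.492 CPM in the PFC. Ly6c1 and Slco1a4 belong to families of near-identical paralogs, so their values are less certain.

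In CPM divided by exon length in kilobases, which allows genes to be set beside each other, Slco1a4 stood highest in the NAc (9.8 ± 1.18 CPM per kb, SD, n = 48), followed by Ly6c1 (8.6 ± 1.25), Cldn5 (7.4 ± 1.01) and Flt1 (5.41 ± 0.474). Esam (3.21 ± 0.262), Tek (2.8 ± 0.251), Pecam1 (2.54 ± 0.212), Cdh5 (2.3 ± 0.247), Ramp2 (1.94 ± 0.262) and Kdr (1.75 ± 0.238) followed. In the PFC Cldn5 led with 12 ± 1.32 CPM per kb, ahead of Ly6c1 (8.92 ± 1.53), Slco1a4 (7.83 ± 0.679) and Flt1 (6.67 ± 0.722). Esam (3.6 ± 0.309), Cdh5 (3.55 ± 0.382), Tek (3.5 ± 0.338), Ramp2 (3.05 ± 0.356), Pecam1 (2.97 ± 0.316) and Kdr (2.02 ± 0.35) made up the rest. In both regions Slco1a4, Ly6c1, Cldn5 and Flt1 stood above the other 6 genes. In the NAc, Slco1a4 and Ly6c1, Ly6c1 and Cldn5, Pecam1 and Cdh5, and Ramp2 and Kdr were neighbours whose means differed by less than the larger of their SDs. In the PFC this held for Ly6c1 and Slco1a4, Esam and Cdh5, Cdh5 and Tek, and Ramp2 and Pecam1. Cldn5 was first in the PFC and the third in the NAc.

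Relative to the TMM-scaled library total, most of the 10 genes had less RNA in the NAc than in the PFC. In a fit over all 96 libraries with the animal as a block, 8 were lower in the NAc, Slco1a4 was higher, and Ly6c1 did not pass the test (edgeR quasi-likelihood test, adjusted p under 0.05). The regions differ in most genes: 85.9% of all genes tested passed, so 9 of 10 is near the background. The median log2 fold change of the 10 genes was -0.25, against 0.02 over all genes tested. The TMM factors ran from 1.005 to 1.12 in NAc libraries and from 0.9271 to 0.9952 in PFC libraries. This scaling lowers NAc levels and raises PFC levels relative to plain library totals. The smaller of the differences below therefore depend on it, and no fit on plain totals was run.

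Among the junction genes, Cldn5, the main claudin of tight junctions in brain capillaries, ran from 8.08 to 15.5 CPM in NAc libraries (median 10.1) and from 14 to 21.6 in PFC libraries (median 16.4). Its values overlapped slightly over all animals, yet the NAc was lower in 48 of 48 animals. The log2 fold change was -0.685 (SE 0.0302, adjusted p by edgeR = 2.31e-25). Cdh5, the cadherin of endothelial adherens junctions, ran from 7.58 to 12.1 CPM in the NAc (median 9.83) and from 12.9 to 20.5 in the PFC (median 14.7). The ranges did not overlap, and Cdh5 was the one gene of the 10 for which this held. Its log2 fold change was -0.587 (SE 0.0272, adjusted p by edgeR = 1.58e-24). The adhesion genes differed less. Pecam1, a molecule of contacts between endothelial cells that platelets and leukocytes also carry, ran from 13.4 to 19.9 CPM in the NAc (median 15.9) and from 14.3 to 22.6 in the PFC (median 18.4), a log2 fold change of -0.21 (SE 0.0222, adjusted p by edgeR = 5.78e-12). Esam, an immunoglobulin-like molecule of endothelial tight junctions, ran from 7.21 to 10.7 CPM in the NAc (median 9.16) and from 8.33 to 12.2 in the PFC (median 10.2). Its fold change was -0.155 (SE 0.0281, adjusted p by edgeR = 2.52e-06), and 41 of 48 animals had less in the NAc. These ranges overlapped widely.

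Of the receptors, Flt1, which binds VEGF-A and can hold it away from other receptors, ran from 55.1 to 90.2 CPM in the NAc (median 73.0) and from 69.1 to 117.0 in the PFC (median 90.3). It was lower in the NAc in 47 of 48 animals (log2 fold change -0.287, SE 0.0209, adjusted p by edgeR = 3.7e-17). Kdr, the main signalling receptor for VEGF-A, ran from 10.4 to 20.1 CPM in the NAc (median 15.8) and from 10.6 to 28 in the PFC (median 18). Nearly all of its NAc range lay within the PFC range, which reached higher, and 45 of 48 animals had less in the NAc (-0.19, SE 0.026, adjusted p by edgeR = 6.5e-09). Tek, the receptor for angiopoietins, ran from 10.5 to 16 CPM in the NAc (median 13.3) and from 13.8 to 21.6 in the PFC (median 16.2). The change was -0.306 (SE 0.023, adjusted p by edgeR = 9.37e-17), in 47 of 48 animals. Ramp2, the partner protein that turns the calcitonin receptor-like receptor into a receptor for adrenomedullin, ran from 4.97 to 9.45 CPM in the NAc (median 6.32) and from 8.45 to 14.9 in the PFC (median 9.75). It was lower in the NAc in 48 of 48 animals, with a median ratio of 0.636 and a log2 fold change of -0.643 (SE 0.0265, adjusted p by edgeR = 1.62e-26). Cldn5, Cdh5 and Ramp2 thus had a NAc level of roughly 0.6 of the PFC level (median ratios 0.609, 0.648 and 0.636), while Flt1 and Tek had ratios of 0.807 and 0.804, and Pecam1, Kdr and Esam 0.855, 0.885 and 0.895.

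The surface and transport genes did not follow the rest. Ly6c1, a lipid-anchored surface protein of capillary endothelium, ran from 10.7 to 21.1 CPM in the NAc (median 14.5) and from 10.9 to 23.2 in the PFC (median 14.8). The 2 ranges were nearly the same, and the difference was -0.0295 (SE 0.028, adjusted p by edgeR = 0.321). Slco1a4, a transporter of organic anions at the blood-brain barrier, ran from 41.4 to 81.0 CPM in the NAc (median 62.4) and from 43 to 64.8 in the PFC (median 50.1). It was higher in the NAc in 45 of 48 animals (log2 fold change 0.323, SE 0.0297, adjusted p by edgeR = 9.4e-14). The same 9 genes passed in stressed animals alone and in control animals alone, where 80.3% and 79.7% of all genes passed. Slco1a4 differed by 0.373 (SE 0.0439) in stressed and 0.273 (SE 0.043) in control animals. Ly6c1 differed by 0.0243 (SE 0.0414) in stressed and -0.0833 (SE 0.0405, adjusted p by edgeR = 0.0567) in control animals. Within cohorts 1, 2 and 3 the NAc minus PFC difference was -0.756, -0.572 and -0.77 for Cldn5, 0.303, 0.429 and 0.316 for Slco1a4, and -0.0952, 0.0985 and -0.0152 for Ly6c1, so the sign held for Cldn5 and Slco1a4 and not for Ly6c1. In the test of region by stress 0 of the 10 and 0.0% of all genes passed (edgeR). DESeq2 and limma-voom called 0 there too, and 0 of the 10 had an unadjusted p under 0.05.

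**Figure D1:**
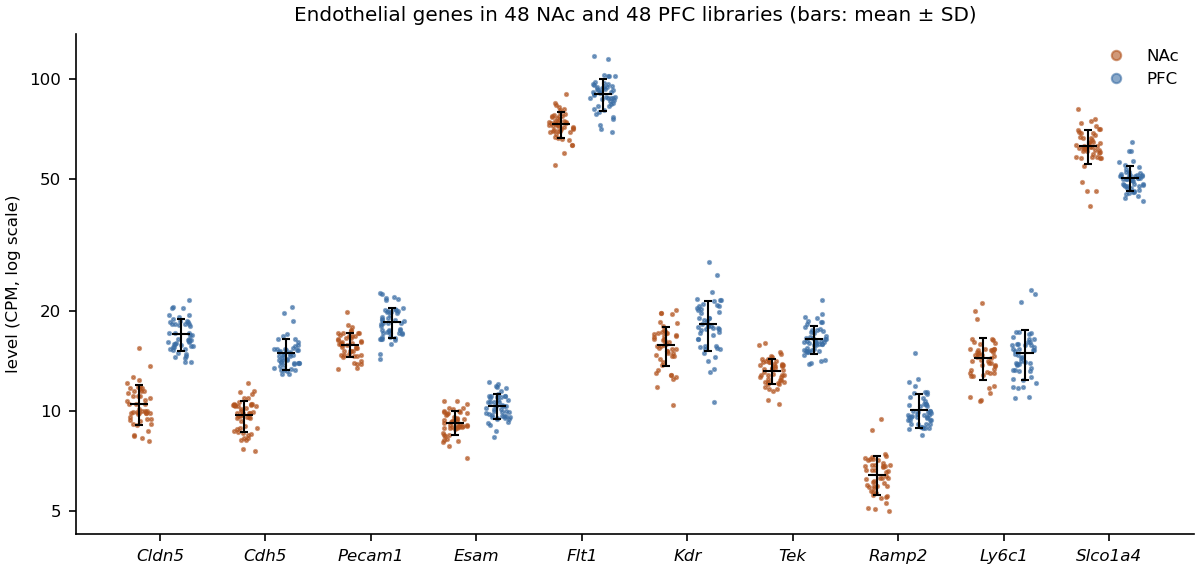
CPM of the 10 genes in every library (points, with the mean and SD), NAc left of PFC within each gene, on a log axis. Cdh5 had separate ranges, 7.58 to 12.1 CPM in the NAc and 12.9 to 20.5 in the PFC, Slco1a4 was higher in the NAc, and Ly6c1 lay at similar levels in both regions.

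The other genes of the vessels were lower in the NAc in most cases too. Of 25 further endothelial genes, 19 fell and 2 rose in the NAc, with a median log2 fold change of -0.33. Vwf, the von Willebrand factor of larger vessels, fell by 0.673 (SE 0.042, PFC mean 17.6 CPM). Cd34, a surface sialomucin, was at -2.02, Egfl7, a secreted endothelial protein, at -0.777, and Nos3, the endothelial nitric oxide synthase, at -0.563, but each overlaps a gene on the opposite strand. Of 18 genes of barrier transport and junctions, 13 fell and 3 rose. They include the amino acid transporter Slc7a5 (-0.713, SE 0.0268), the organic anion transporter Slc22a8 (-0.773, SE 0.0398) the glucose transporter Slc2a1 (-0.384, SE 0.0213) and Bsg, a membrane protein that partners lactate transporters (-0.348, SE 0.0164). Slco1a4 thus stood at 0.323 while the anion transporter Slc22a8 stood at -0.773. Slco1a4 was not alone in being higher in the NAc. On the barrier list, Slco1c1 averaged 59.5 CPM in the NAc and 53.5 in the PFC, Itm2a 48.6 and 37.8, and Slc16a1 28.2 and 26.8.

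Of 19 genes of VEGF, angiopoietin and adrenomedullin signalling, 11 fell and 5 rose in the NAc. Ligands and partners were among them: Vegfb, a ligand of Flt1, fell by 0.467 (SE 0.0234), Vegfc, a ligand of Kdr, by 1.29 (SE 0.0649), and Ramp3, which can replace Ramp2 at the adrenomedullin receptor, by 1.22 (SE 0.069). The Notch target Hey1 fell by 0.627 (SE 0.0224). Of 15 genes of Wnt signalling at the barrier, 9 fell and 6 rose. The ligand Wnt7a rose by 1.33 (SE 0.0365) and the co-receptor Tspan12 by 0.53 (SE 0.0254), while Lef1, a nuclear effector of the pathway, fell by 0.799 (SE 0.0358). The ligand Wnt7b was at -1.78 (SE 0.0717), with means of 15.4 CPM in the NAc and 51.1 CPM in the PFC, and overlaps the opposite-strand gene AU022754. Of 8 genes of activated and venous endothelium 7 fell and 1 rose, and of 10 arterial genes 5 fell and 2 rose. The leukocyte adhesion molecule Icam1 stood at -0.92, the chemokine-binding receptor Ackr1 at -0.382, and Vcam1 and Nr2f2, which overlap opposite-strand genes, at 0.381 and -0.981. Of the arterial genes, Mgp stood at -1.41, the connexin gene Gja4 at -0.866, the ephrin gene Efnb2 at 0.392 and Gja5, which overlaps Gpr89, at 2.36. Each of these counts stands against the 85.9% of all genes that differed between regions.

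Markers of other cell types moved with region as well. Of 8 smooth muscle genes 7 fell in the NAc, of 10 fibroblast genes 10 and of 5 red blood cell genes 5, with medians of -0.74, -1.9 and -0.95. The 10 pericyte genes had 6 that fell and 1 that rose. The summed level of the fibroblast genes was 28.9 ± 5.69 CPM in the NAc and 90.9 ± 29.5 in the PFC (SD, n = 48 each), and that of the oligodendrocyte genes 5670 ± 1080 and 1060 ± 243.0 CPM, where all 8 genes rose. The part of these cells in the lower endothelial levels was not tested.

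Each region held 8 groups of genotype and treatment. The group means of Cldn5, Cdh5, Esam, Flt1, Tek, Ramp2 and Slco1a4 did not overlap between the regions, and those of Pecam1, Kdr and Ly6c1 did. Cldn5 ran from 9.96 ± 1.24 CPM in XY- controls to 11.1 ± 1.48 in XXSry controls in the NAc (SD, n = 7 and 6), and from 16 ± 1.42 in stressed XY- mice to 18.4 ± 0.43 in XXSry controls in the PFC. Cdh5 ran from 9.0 ± 1.12 CPM (XY-Sry controls) to 10.8 ± 0.543 (XX controls) in the NAc and from 14.2 ± 0.981 (stressed XXSry) to 16 ± 2.31 (XY- controls) in the PFC. Pecam1 ran from 15.2 ± 1.07 CPM (stressed XY-Sry) to 17.2 ± 1.64 (XY- controls) in the NAc and from 17.1 ± 1.01 (stressed XXSry) to 20.3 ± 1.81 (XY- controls) in the PFC. For Pecam1 the XY- controls had the highest mean in both regions. Esam ran from 9.6 ± 0.756 CPM (stressed XX) down to 8.76 ± 0.542 (XY-Sry controls) in the NAc and from 10.7 ± 1.22 (stressed XY-Sry) down to 9.77 ± 0.737 (XY-Sry controls) in the PFC.

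Flt1 ran from 69.9 ± 9.27 CPM (XY- controls) to 76.4 ± 5.15 (XXSry controls) in the NAc and from 82.3 ± 10.1 (stressed XX) to 94.7 ± 2.94 (XX controls) in the PFC. Kdr had the widest spread of the kinase receptors, from 14.7 ± 3.17 CPM (XY- controls) to 18.2 ± 1.38 (XX controls) in the NAc and from 15.8 ± 2.01 (stressed XX) to 20.1 ± 2.24 (XX controls) in the PFC. Tek ran from 12.4 ± 1.27 CPM (stressed XXSry) to 14 ± 1.04 (XXSry controls) in the NAc and from 15.4 ± 0.9 (stressed XXSry) to 17.3 ± 2.18 (XY- controls) in the PFC. The lowest PFC group of each kinase receptor was a stressed group. Ramp2 ran from 5.49 ± 0.616 CPM (stressed XY-Sry) to 7.36 ± 1.25 (XY- controls) in the NAc and from 9.2 ± 0.437 (stressed XXSry) to 11.2 ± 1.82 (XY- controls) in the PFC. Ly6c1 ran from 13 ± 1.73 CPM (XXSry controls) to 17 ± 2.53 (XY- controls) in the NAc and from 13.6 ± 3.93 (stressed XXSry) to 18.2 ± 3.3 (XY- controls) in the PFC. Slco1a4 ran from 56.8 ± 11.7 CPM (stressed XY-) to 65.8 ± 3.22 (stressed XY-Sry) in the NAc and from 48.1 ± 2.7 (XX controls) to 55.1 ± 6.79 (XY- controls) in the PFC. XY- controls held the highest mean of Pecam1, Ramp2 and Ly6c1 in both regions.

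**Figure D2:**
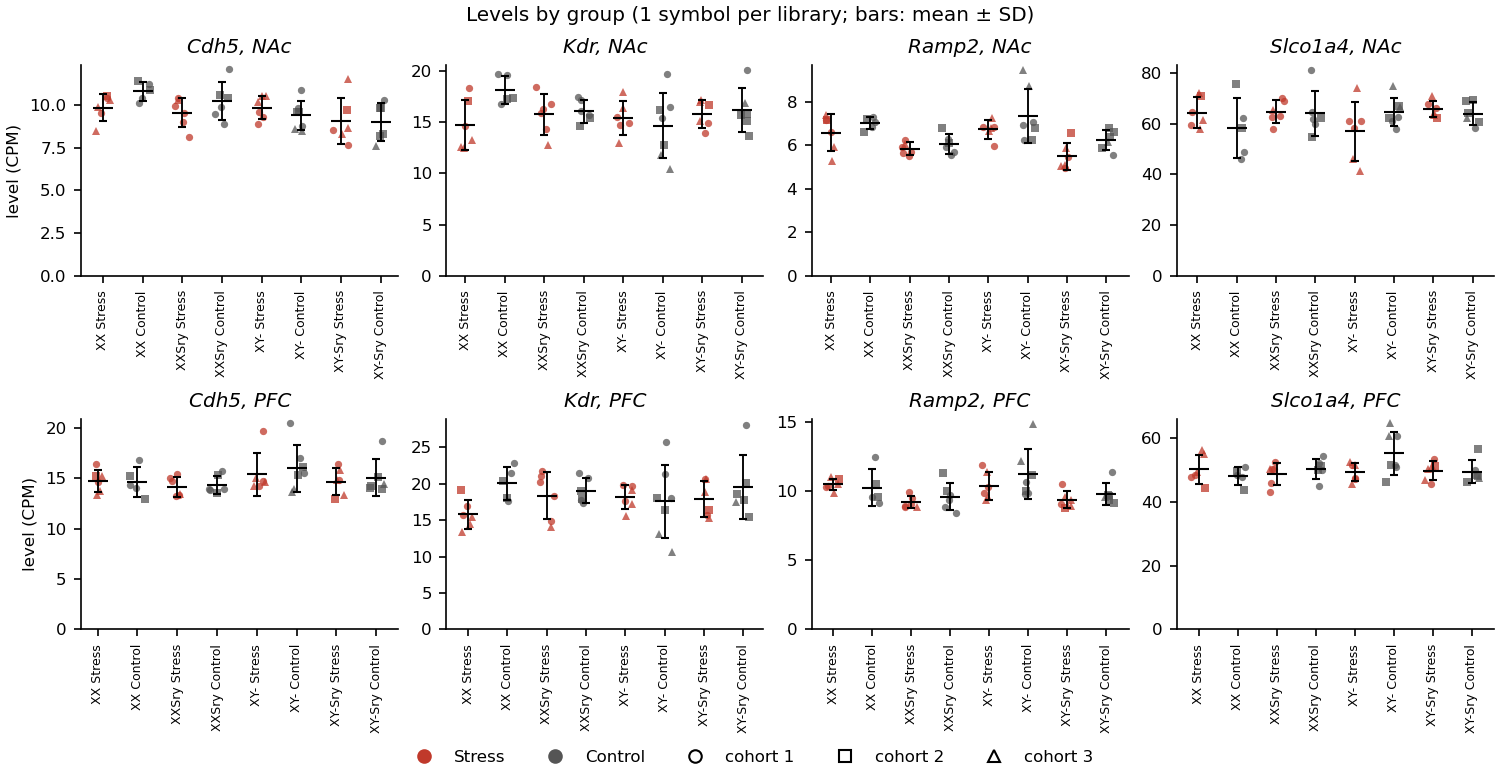
Levels (CPM, linear axis from 0) of Cdh5, Kdr, Ramp2 and Slco1a4 by genotype and treatment, NAc above PFC, stressed groups left of controls, 1 symbol per library with its shape for the cohort and bars for mean and SD. Kdr in the PFC ran from 13.4 to 19.1 CPM in stressed XX mice, against 17.6 to 22.8 CPM in XX controls, and the Ramp2 means of XXSry and XY-Sry mice lay below those of XX and XY- mice in both regions.

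No difference by stress was called for the 10 genes in either region (adjusted p by edgeR, 0 called of 10, where 0.0% of all genes were called). DESeq2 and limma-voom also called 0 of the 10. In the PFC 9 of 10 lay below 0, with a median log2 fold change of -0.073 against -0.00041 over all genes, and 3 had an unadjusted p under 0.05, as did 5.73% of all genes. In the NAc 7 of 10 lay below 0, with a median of -0.02 against 0.0016 over all genes, and 2 had an unadjusted p under 0.05, as did 4.59% of all genes.

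Pecam1 was among these in both regions. In the NAc it ran from 13.4 to 17.5 CPM in stressed animals (median 15.1) and from 13.8 to 19.9 in controls (median 16.1, n = 24 each), a log2 difference of -0.0801 (SE 0.0356, adjusted p by edgeR = 0.997). In the PFC it ran from 14.3 to 21.6 CPM in stressed animals (median 17.4) and from 16.4 to 22.6 in controls (median 18.8), a change of -0.1 (SE 0.0375, adjusted p by edgeR = 0.737). The groups overlapped through most of their ranges. Within cohorts 1, 2 and 3 the values were -0.107, -0.0719 and -0.0243 in the NAc and -0.154, -0.0491 and -0.0184 in the PFC. Treatment was uneven over the cohorts: cohort 2 had stressed animals of XX (1) and XY-Sry (1) only, and cohort 3 controls of XY- (2) and XY-Sry (1) only. Stress values within these cohorts thus rest on few animals of 1 treatment, and the CPM ranges are not adjusted for cohort. Ramp2 in the NAc ran from 4.97 to 7.39 CPM under stress (median 6.01) and from 5.55 to 9.45 in controls (median 6.62), a change of -0.109 (SE 0.0487, adjusted p by edgeR = 0.997). Within cohorts it was -0.0343, 0.0615 and -0.353, so the sign was not the same in all 3. In the PFC Cldn5 differed by -0.0862 (SE 0.0416, adjusted p by edgeR = 0.849) and Slco1a4 by -0.079 (SE 0.0351, adjusted p by edgeR = 0.803). Cldn5 was at 0.0979 within cohort 3 and at -0.148 within cohort 1. Esam was the 1 gene above 0 in the PFC (0.0473, SE 0.0408). The genes not given singly ran from -0.0514 (Kdr) to 0.0347 (Flt1) in the NAc and from -0.112 (Ly6c1) to -0.0208 (Cdh5) in the PFC. The 95% intervals of the 10 genes reached down to -0.204 in the NAc (Ramp2) and -0.244 in the PFC (Ly6c1). Cldn5 in the NAc stood at -0.0192 (SE 0.0637), with -0.177, 0.28 and 0.295 within cohorts 1, 2 and 3. The summed level of the red blood cell genes was 61.9 ± 26.1 CPM in stressed animals and 73.6 ± 23.1 in controls in the NAc, and 148.0 ± 74.8 and 170.0 ± 60.4 CPM in the PFC. Its part in these values was not tested.

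Within single genotypes 0 of the 10 passed for stress in either region (adjusted p by edgeR), where 0.0% of all genes passed, and DESeq2 and limma-voom gave 0 as well. In XX mice, Kdr ran from 12.5 to 18.4 CPM under stress in the NAc (median 14, n = 6), and the 5 controls had 16.8, 17.3, 17.4, 19.6 and 19.7. In the PFC it ran from 13.4 to 19.1 CPM under stress (median 15.5), and the controls had 17.6, 18, 20.4, 21.5 and 22.8. The groups overlapped by the upper stressed values only. With cohort in the model the log2 fold change was -0.232 in the NAc (SE 0.109, adjusted p by edgeR = 0.967) and -0.223 in the PFC (SE 0.132, adjusted p by edgeR = 1.0), and without the cohort term it was -0.298 and -0.34. Kdr differed between cohorts: it averaged 15.8 ± 2.79 CPM in cohort 3 in the PFC and 19.8 ± 3.15 in cohort 1, and 3 of 6 stressed XX mice but 0 of 5 XX controls were in cohort 3. Within cohort 1, with 2 stressed and 3 control XX mice, the Kdr difference was -0.176 in the NAc and -0.34 in the PFC. Within cohort 2 it was -0.0171 and -0.0112, but there a single stressed XX mouse stood against 2 controls.

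In XY- mice, Slco1a4 in the PFC ran from 45.6 to 52.3 CPM under stress (median 49.4) and from 46.3 to 64.8 in controls (median 51.4, n = 6 and 7). The controls reached higher, with 3 of 7 above every stressed animal. Its fold change was -0.194 (SE 0.0611, adjusted p by edgeR = 0.288). Ly6c1 stood at -0.227 in the NAc (SE 0.103, adjusted p by edgeR = 1.0) and -0.253 in the PFC (SE 0.117, adjusted p by edgeR = 0.506). Its PFC values ran from 15.3 to 15.8 CPM in stressed XY- mice and from 14.4 to 23.2 in XY- controls, so the stressed animals lay within the control range and spread much less. Within cohort 3 alone Kdr (0.526), Ly6c1 (-0.581) and Slco1a4 (-0.351) passed in the PFC, as did 353 of 19434 genes. In XXSry mice, Cldn5, Pecam1 and Tek had an unadjusted p under 0.05 in the PFC, with values of -0.189, -0.164 and -0.167, and Tek stood at -0.173 in the NAc. In XY-Sry mice none of the 10 had such a p in either region. The 3 interactions of stress, chromosomes and gonads called 0 of the 10 in either region (0.0% of all genes, adjusted p by edgeR). DESeq2 and limma-voom called 0 of the 10 for them too. Among them 2 values were below an unadjusted p of 0.05, Tek (-0.16) and Ly6c1 (0.244) for stress by gonads in the NAc. In that comparison 2.94% of all genes had such a p.

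**Figure D3:**
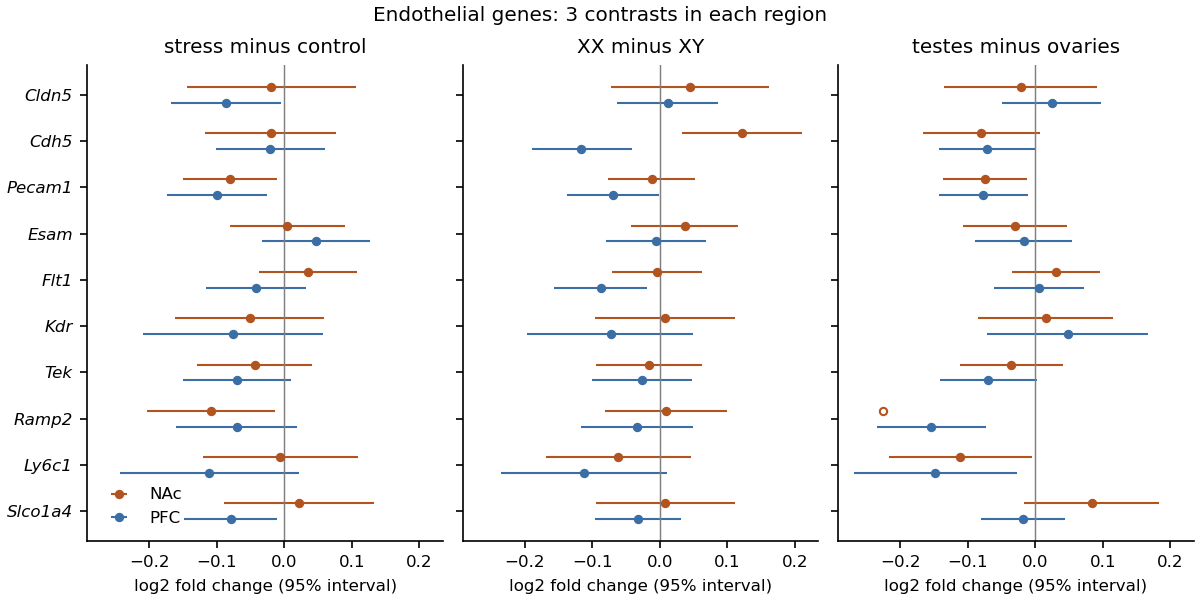
Log2 fold changes of the 10 genes for stress minus control, XX minus XY and testes minus ovaries in the NAc and the PFC, with 95% intervals from the edgeR fit. The open point without an interval is Ramp2 in the NAc (-0.225), given as a description, and Cdh5 for XX minus XY lies at 0.122 in the NAc and -0.116 in the PFC.

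Chromosome complement, taken as XX minus XY with gonads and treatments averaged, called 0 of the 10 in either region, against 0.584% of all genes in the NAc and 1.12% in the PFC. DESeq2 and limma-voom gave 0 for the 10 as well. In the NAc 4 of 10 lay below 0 (median 0.0082) and 1 had an unadjusted p under 0.05, as did 5.97% of all genes. In the PFC 9 of 10 lay below 0 (median -0.052, against 0.00094 over all genes) and 2 had such a p, as did 11.6% of all genes. The PFC median was known when the genes were chosen, so it and the count below 0 are descriptions and support nothing.

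The Cdh5 estimates had opposite signs in the regions, and neither passed. In the NAc it ran from 8.14 to 12.1 CPM in XX mice (median 10.3, n = 23) and from 7.58 to 11.5 in XY mice (median 9.56, n = 25), a log2 fold change of 0.122 (SE 0.0454, adjusted p by edgeR = 0.534). In the PFC it ran from 12.9 to 16.8 CPM in XX mice (median 14.3) and from 12.9 to 20.5 in XY mice (median 14.8), a change of -0.116 (SE 0.0378, adjusted p by edgeR = 0.133). The groups overlapped in both regions, and the 4 highest PFC values were all of XY mice. By genotype the NAc means were 10.3 ± 0.821 CPM in XX, 9.89 ± 1.02 in XXSry, 9.6 ± 0.781 in XY- and 9.03 ± 1.19 in XY-Sry mice. Those of the PFC were 14.7 ± 1.22, 14.2 ± 0.908, 15.7 ± 2.16 and 14.9 ± 1.57 CPM in the same order (SD, n = 11, 12, 13 and 12). Neighbouring genotypes in this order differed by less than the larger of their SDs. The test of region by chromosomes, in which 0.0151% of all genes passed, gave Cdh5 a difference of 0.236 (SE 0.0537, adjusted p by edgeR = 0.222), and 0 of the 10 passed. In that test 1 of the 10 had an unadjusted p under 0.05, as did 4.79% of all genes. There limma-voom called 0 and DESeq2 called Cdh5 (adjusted p = 0.0428). All 10 lay above 0 there, with a median of 0.047 against 0.0011 over all genes. These values contain the PFC difference, whose median was known beforehand, so they too are a description. Within cohorts 1, 2 and 3 Cdh5 stood at 0.296, 0.231 and 0.0276 in that test. Its XX minus XY values within cohorts were 0.117, 0.188 and -0.0418 in the NAc and -0.187, -0.0351 and -0.071 in the PFC. The signs were thus not opposite in cohort 3.

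Flt1 in the PFC ran from 69.1 to 102.0 CPM in XX mice (median 90) and from 70.7 to 117.0 in XY mice (median 91.4). Its fold change was -0.0875 (SE 0.0349, adjusted p by edgeR = 0.278) with overlapping groups. Within cohorts 1, 2 and 3 it was -0.172, 0.125 and -0.193. Within cohort 1 alone Flt1 passed (adjusted p by edgeR = 0.0304), as did 168 of 19549 genes. The remaining genes ran from -0.0612 (Ly6c1) to 0.0445 (Cldn5) in the NAc and from -0.112 (Ly6c1) to 0.0118 (Cldn5) in the PFC. Among the lists of vessel genes, 1 of 25 further endothelial genes fell in XX mice in the PFC, the adhesion G protein-coupled receptor gene Adgrf5 (-0.141, SE 0.0301, adjusted p by edgeR = 0.00666), and 21 of 25 lay below 0. Of 18 barrier genes 2 fell, the glucose transporter Slc2a1 (-0.154, SE 0.0369, adjusted p by edgeR = 0.0214) and the junctional molecule F11r (-0.175, SE 0.0456, adjusted p by edgeR = 0.0387). All 18 lay below 0, with a median of -0.089. Of 15 Wnt genes 1 fell, Lef1 (-0.175, adjusted p by edgeR = 0.0404). None of the 19 VEGF, angiopoietin and adrenomedullin genes passed. In the NAc no member of these 4 lists passed, and of the 8 genes of activated and venous endothelium 1 did: Lcn2, a secreted protein of acute inflammation, stood at -3.49 (SE 0.754, adjusted p by edgeR = 0.00907), at a mean of 0.0896 ± 0.172 CPM over the 48 NAc libraries. In the PFC the lymphatic and macrophage gene Lyve1 (-0.605, SE 0.155) and the astrocyte gene Gja1 (-0.0992, SE 0.0263) also fell, with adjusted p by edgeR of 0.0358 and 0.0425. There the red blood cell genes summed to 148.0 ± 60.2 CPM in XX and 169.0 ± 74.8 CPM in XY mice (SD, n = 23 and 25). The fibroblast genes summed to 86.3 ± 21 CPM in XX and 95.2 ± 35.6 CPM in XY mice, and the microglial genes to 356.0 ± 20.1 and 375.0 ± 40.0 CPM. The part of these cells in the values was not tested.

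Gonad type, as testes minus ovaries over both chromosome complements and both treatments, also called 0 of the 10 in either region (adjusted p by edgeR), where 0.0102% of all genes passed in the NAc and 0.0467% in the PFC. Ramp2 is among the 10, and its NAc value is a description. Of the other 9 genes, and of all 10 in the PFC, DESeq2 and limma-voom called 0. In each region 7 of 10 lay below 0 and 3 had an unadjusted p under 0.05, as did 9.28% of all genes in the NAc and 6.74% in the PFC. The NAc counts and median include Ramp2 and so are descriptions too. The medians were -0.033 in the NAc and -0.044 in the PFC, against 0.0024 and 0.00022 over all genes.

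Ramp2 had the largest values. Its NAc difference was known when the list was drawn up and is given as a description. In the NAc it ran from 4.97 to 6.8 CPM in mice with testes (median 5.91, mean 5.9 ± 0.516) and from 5.26 to 9.45 in mice with ovaries (median 6.86, mean 6.93 ± 0.842, SD, n = 24 each), a log2 difference of -0.225 (SE 0.0447). The lowest libraries with ovaries overlapped with those with testes, and no library with testes was above 6.8 CPM. In the PFC it ran from 8.45 to 11.4 CPM with testes (median 9.38, mean 9.5 ± 0.727) and from 9.12 to 14.9 with ovaries (median 10.4, mean 10.6 ± 1.27), a change of -0.154 (SE 0.0412, adjusted p by edgeR = 0.296). By genotype the NAc means were 5.95 ± 0.373 CPM in XXSry and 6.77 ± 0.653 in XX mice, and 5.86 ± 0.643 in XY-Sry and 7.07 ± 0.98 in XY- mice. The PFC means were 9.41 ± 0.759 CPM in XXSry and 10.4 ± 0.91 in XX mice, and 9.58 ± 0.715 in XY-Sry and 10.8 ± 1.52 in XY- mice (SD, n = 12, 11, 12 and 13). Both testis genotypes lay below both ovary genotypes in each region, and within each pair of genotypes with the same gonads the means lay within 1 SD.

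Within chromosome complements, Ramp2 stood at -0.166 (SE 0.0647) for XXSry minus XX and -0.284 (SE 0.0635) for XY-Sry minus XY- in the NAc. In the PFC it stood at -0.137 (SE 0.0599, adjusted p by edgeR = 0.69) and -0.172 (SE 0.0579, adjusted p by edgeR = 0.811). Within cohorts 1, 2 and 3 the testes minus ovaries difference was -0.276, -0.0624 and -0.327 in the NAc and -0.116, -0.0779 and -0.247 in the PFC, below 0 in each. The test of region by gonads gave -0.0731 (adjusted p by edgeR = 0.844), and 0 of the 10 and 0.0% of all genes passed it. There 0 of the 10 were below an unadjusted p of 0.05, and DESeq2 and limma-voom called 0. The Ramp2 value contains the NAc difference known beforehand, so it and its part in these counts are descriptions too. The neighbour Vps25, which shares exonic bases with Ramp2, differed by -0.0117 in the NAc and -0.017 in the PFC.

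Ly6c1 ran from 10.7 to 18.9 CPM with testes (median 13.9) and from 11.9 to 21.1 with ovaries (median 14.8) in the NAc, a change of -0.111 (SE 0.0536, adjusted p by edgeR = 0.536). Its PFC values ran from 10.9 to 21.3 CPM with testes (median 13.8) and from 12.6 to 23.2 with ovaries (median 15.7), a change of -0.148 (SE 0.0613, adjusted p by edgeR = 0.62). The groups overlapped widely. Pecam1 stood at -0.0742 (SE 0.0319, adjusted p by edgeR = 0.509) in the NAc and -0.0773 (SE 0.0338, adjusted p by edgeR = 0.646) in the PFC. The remaining genes ran from -0.0799 (Cdh5) to 0.0836 (Slco1a4) in the NAc and from -0.0711 (Cdh5) to 0.0482 (Kdr) in the PFC. No member of the other vessel lists passed. Markers of blood moved alongside: the red blood cell genes summed to 58.0 ± 18.2 CPM with testes and 77.5 ± 27.6 with ovaries in the NAc, and to 137.0 ± 52.5 and 181.0 ± 76.1 in the PFC. In each region 5 of 5 of these genes lay below 0. The fibroblast genes summed to 27.7 ± 4.26 CPM with testes and 30.2 ± 6.7 with ovaries in the NAc and to 84.1 ± 24.2 and 97.8 ± 33.2 in the PFC (SD, n = 24 each). Their part in the values of Ramp2, Ly6c1 and Pecam1 was not tested.

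Single genotypes set against each other gave no call among the 10 either (adjusted p by edgeR). The shares of all genes called were 0.0% for XXSry minus XX and for XY-Sry minus XY- in the NAc and 0.00518% and 0.0259% in the PFC. They were 0.533% for XX minus XY-, 0.132% for XXSry minus XY-Sry, 0.122% for XX minus XY-Sry and 0.782% for XXSry minus XY- in the NAc, and 0.56%, 0.171%, 0.275% and 1.38% in the PFC. An unadjusted p under 0.05 was held by 2.98% to 10.4% of all genes in these comparisons, and by 9.63% for XXSry minus XY- in the PFC. Of the 10, between 0 and 4 had such a p in each. XXSry minus XY-, which differs in both chromosomes and gonads, had 4 in the PFC: Cdh5 (-0.187, SE 0.0522, adjusted p by edgeR = 0.0538), Pecam1 (-0.146, SE 0.048), Ramp2 (-0.188, SE 0.0586) and Ly6c1 (-0.259, SE 0.0874). XX minus XY-Sry, which also differs in both, had 1 there, Ramp2, above 0 (0.12, SE 0.0593, adjusted p by edgeR = 0.56). For XXSry minus XY- in the PFC, DESeq2 called Cdh5 (adjusted p = 0.0309) and limma-voom called 0. In the PFC, Cdh5 ran from 13.2 to 15.7 CPM in XXSry mice (median 13.9) and from 13.6 to 20.5 in XY- mice (median 15.0). Most XY- values lay within or just above the XXSry range. Genes of other lists were called in XXSry minus XY- in the PFC, each below 0. Of 25 further endothelial genes 2 fell, the adhesion receptors Adgrf5 (-0.171) and Adgrl4 (-0.257), and of 18 barrier genes 4, F11r (-0.319), Slc2a1 (-0.248) and the efflux transporters Abcc4 (-0.208) and Abcb1a (-0.211, overlapping Gm42686). The leukocyte adhesion gene Icam1 (-0.536), the Tek ligand Angpt2 (-0.585, overlapping Mcph1) and Lyve1 (-0.807) also fell. Of 8 microglial genes 3 fell, the complement genes C1qb (-0.337, SE 0.0781) and C1qa (-0.307, SE 0.0772) and the receptor gene Csf1r (-0.21, overlapping Hmgxb3). The part of these cells in the values of the 10 genes was not tested. In XX minus XY- in the PFC Slc2a1 (-0.229) and Icam1 (-0.473) fell, and in XX minus XY-Sry there the astrocyte gene S100b, which overlaps Dip2a, rose by 0.152. In the NAc Lcn2 stood at -5.35 (SE 1.24) in XX minus XY- and passed, and the red blood cell gene Alas2, which overlaps Apex2, at -0.828 in XXSry minus XY-. In the other genotype pairs limma-voom called 0 of the 10. DESeq2 called 0 as well, apart from Ramp2 in XY-Sry minus XY- in the NAc, which is a description only.

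How the 10 genes varied together was examined over the 48 libraries of a region, after group and cohort means were taken out of log2 CPM. In the PFC 39 of 45 pairs correlated above 0, with a median Pearson r of 0.331, and 19 passed after adjustment over the 90 pairs of both regions (permutation test). In the NAc 29 of 45 pairs were above 0, with a median of 0.11, and 5 positive and 2 negative pairs passed. All values of a library share its depth and its scaling. The permutations shuffled the 48 values as if free, although removing group and cohort means ties them to each other. The permutation p-values are therefore likely too small, and pairs that passed narrowly are uncertain. Cdh5 and Flt1 had an r of 0.259 in the NAc (permutation adjusted p = 0.154), against 0.717 in the PFC (Spearman rho 0.657, permutation adjusted p = 0.0003 and 0.00045). The smallest raw p that 100000 permutations give is 1e-05, which this pair reached in the PFC. Without the 2 libraries farthest out on Cdh5 the PFC value was 0.671, and within cohorts 1, 2 and 3 it was 0.735, 0.643 and 0.837. Cdh5 and Flt1 thus moved together in the PFC in each cohort.

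The 7 junction and kinase receptor genes were the ones that moved together most in the PFC, a set picked after seeing these values and described without a test. Their 21 pairs had r from -0.1 to 0.555 in the NAc (median 0.259) and from 0.239 to 0.717 in the PFC (median 0.462). Within cohorts 1, 2 and 3 the medians were 0.193, 0.246 and 0.199 in the NAc and 0.471, 0.595 and 0.522 in the PFC. Pairs with Ly6c1 or Slco1a4 passed in either direction. Cldn5 and Slco1a4 had an r of -0.52 in the NAc (rho -0.493, permutation adjusted p = 0.00106 and 0.0034) and 0.144 in the PFC. Without the 2 outermost libraries the NAc value was -0.398, and within cohorts it was -0.567, -0.348 and -0.589. Kdr and Ly6c1 had an r of -0.402 in the NAc (rho -0.388, permutation adjusted p = 0.0182 and 0.0252, -0.38 without 2 libraries) and -0.292 in the PFC. Within cohorts the NAc values were -0.472, -0.222 and -0.409. NAc libraries with more Cldn5 thus had less Slco1a4, and those with more Kdr had less Ly6c1. Ramp2 went with Ly6c1 in the NAc (r 0.443, rho 0.479, permutation adjusted p = 0.00861 and 0.00576), while the PFC value of 0.34 did not pass (0.0621). Within cohorts the NAc values were 0.23, 0.775 and 0.489. In the PFC Ly6c1 went with Pecam1 (r 0.433, rho 0.441, permutation adjusted p = 0.00968 and 0.0105, 0.407 without 2 libraries) and with Slco1a4 (r 0.428, rho 0.414, permutation adjusted p = 0.00968 and 0.0154, 0.372 without 2 libraries). The NAc values were 0.278 and -0.106. Within cohorts 1, 2 and 3 the PFC values were 0.524, 0.403 and 0.299 for Pecam1 and 0.279, 0.499 and 0.69 for Slco1a4.

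**Figure D4:**
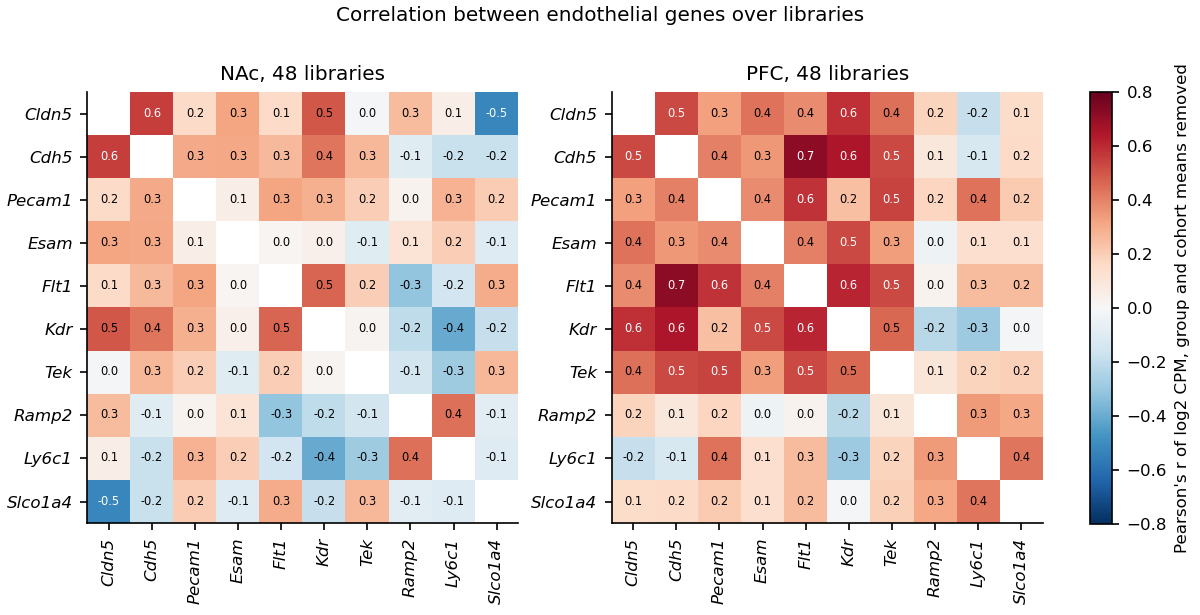
Pearson r between each pair of the 10 genes over 48 libraries, with group and cohort means removed, NAc left and PFC right. PFC pairs of junction and kinase receptor genes run from 0.239 to 0.717, while Cldn5 with Slco1a4 reaches -0.52 in the NAc.

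The level of a gene in the NAc and the PFC of the same animal was correlated over 48 animals in a family of 10 genes. Kdr gave an r of 0.644 (rho 0.604, permutation adjusted p = 0.0001 and 0.0003, 0.642 without 2 animals) and 0.596, 0.391 and 0.824 within cohorts 1, 2 and 3. Ly6c1 gave an r of 0.568 (rho 0.488, permutation adjusted p = 0.00015 and 0.002, 0.447 without 2 animals) and 0.644, 0.494 and 0.46 within cohorts. An animal high in Kdr or Ly6c1 in one region therefore tended to be high in the other. For Esam (-0.0061), Slco1a4 (0.0754), Cdh5 (0.18), Pecam1 (0.188) and Flt1 (0.278) no such relation passed. Cldn5 (0.35), Tek (0.351) and Ramp2 (0.332) passed by Pearson's r (permutation adjusted p = 0.036, 0.036 and 0.043) and not by rho (0.108, 0.137 and 0.321). For Cldn5 the value was -0.411 within cohort 2. The limit on permutation p-values given above applies here too, so the passes of Cldn5, Tek and Ramp2 are uncertain.

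Of 13979 further genes ranked by how closely they followed the mean of the 10 genes over the 48 libraries of each region, taking the smaller r of the 2 regions, Adgrf5 came first with 0.584 in the NAc and 0.766 in the PFC. Abcc9, a subunit of a potassium channel of pericytes, followed with 0.57 and 0.613. The basement membrane genes Nid1 (0.605 and 0.569) and Lamc1 (0.56 and 0.582) were next, with Cpt1a (0.555 and 0.675), Tmod3 (0.547 and 0.561) and Vtn, a marker of pericytes (0.534 and 0.649). Ankrd13a, which overlaps opposite-strand genes, Slc41a1 and Utrn completed the 10, with 0.521, 0.549 and 0.513 in the NAc and 0.527, 0.514 and 0.514 in the PFC. None of the 10 was chosen for function, and they were ranked by r alone. Unlike most of the 10 endothelial genes, Adgrf5 and Lamc1 had nearly the same level in both regions (NAc minus PFC 0.0377 and 0.0158).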

How the data were processed

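RNA from tissue punches was sequenced as polyadenylated libraries, per the labels' protocols. The authors deposited gene counts on the GRCm38 build. The submitters' processing notes name FastQC 0.11.9, Trimmomatic 0.38 and HISAT2 2.2.0. Of the counting, neither tool nor strand setting nor annotation is given in the sources used here. Total counts exceed the read number that the labels' protocols give as an average, so a fragment's ends may have been counted separately.

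Counts were filtered for low values and scaled by TMM, and each region was fitted with edgeR 4.0.16 (quasi-likelihood test, genotype by treatment groups and cohort as covariate) over 19684 genes in the NAc and 19292 in the PFC. Both regions were fitted together over 19918 genes with the animal as a block. P-values were adjusted by Benjamini-Hochberg over all genes tested, with a threshold of 0.05. The libraries of an animal are paired by the titles. Their deviations from the group means correlated with a median r of 0.105 over 13989 genes (above 0.1 in 26 of 48 animals, best with their own partner in 8). CPM used TMM-scaled library sizes, and log2 CPM a prior count of 2. Exon lengths and overlaps came from GENCODE M21 (19795 IDs matched, 123 did not). DESeq2 1.42.0, limma 3.58.1 (voom), other scalings and filters, no cohort term, single cohorts and leaving out each library were alternatives. Tests were checked on simulated data. The rule for named genes takes all 10 genes in each comparison and, of every other list, the called genes, at most 4 by smallest p. Outside this rule, Slco1c1, Itm2a and Slc16a1 are given by their mean levels in the region comparison. Members without a value of their own in a comparison stand within its counts, medians and ranges, and lists of other cell types in the region comparison have counts, medians or sums only. The members and lists were chosen with earlier results of these data known. The labels give animals as separate, so p-values measure the spread between animals.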

Additional observations from a re-analysis of the deposited data

Results flagged for a closer look

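Single libraries stood far from the rest of their group in 11 of 160 combinations of 1 of the 10 genes with 1 of 16 groups of 5 to 7 libraries, where chance gives about 1 in 20. These CPM are not adjusted for cohort. The PFC library of XY-Sry control replicate 38 was the highest of its group for 4 genes, with 19.4 CPM of Cldn5 (others 14.8 to 16), 18.7 of Cdh5 (13.9 to 15.1), 28 of Kdr (15.5 to 20.1) and 11.4 of Ramp2 (9.13 to 9.7). Replicate 38 was the only XY-Sry control of cohort 1. In the PFC, cohort 1 had higher means than cohorts 2 and 3 for Kdr (19.8 against 18.1 and 15.8 CPM), Cldn5 and Cdh5, but not for Ramp2. Cldn5 also reached 12.6 CPM in the NAc of stressed XY-Sry replicate 23 (others 9.4 to 9.96), the only animal of cohort 2 in its group. It reached 18.6 CPM in the PFC of stressed XX replicate 17 (15.2 to 16.4). Cdh5 reached 19.7 CPM in the PFC of stressed XY- replicate 15 (14.2 to 15.0). Esam was low, at 8.33 CPM, in the PFC of stressed XY-Sry replicate 49 (10.6 to 11.8). Ly6c1 reached 21.3 CPM in the PFC of stressed XXSry replicate 4 (10.9 to 14). Slco1a4 reached 81.0 CPM in the NAc of XXSry control replicate 51 (54.6 to 64.4) and 56.5 CPM in the PFC of XY-Sry control replicate 33 (46.1 to 50).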

How the results depend on the processing

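Of 38 counts of called genes among the 10, 30 were equal under every alternative run. For NAc minus PFC, 9 genes were called under each alternative over all cohorts, including the fit with no replicate block, where pairing by animal is dropped (17093 of 19918 genes called, against 17113 with it). Cohorts 1, 2 and 3 alone gave 10, 9 and 7, where 16259 of 19918, 13042 of 19917 and 12341 of 19917 genes were called. Within cohort 3, Esam (-0.0618) and Kdr (-0.118) were no longer called, and within cohort 1 Ly6c1 (-0.0952) was. Within cohort 1, XX minus XY in the PFC called 1 gene, Flt1 (-0.172), and 168 of 19549 genes in all. Within cohort 3, stress in XY- mice in the PFC called 3, Kdr (0.526), Ly6c1 (-0.581) and Slco1a4 (-0.351), and 353 of 19434 genes in all, against 0 over all cohorts. A lone sample in a cohort's group is there assumed to vary like the other groups. DESeq2 called 1 gene, Cdh5, for XXSry minus XY- in the PFC and for region by chromosomes, where it called 373 and 7 genes in all, against 267 and 3 by edgeR. In the NAc the gene whose call changed was Ramp2, whose difference by gonad type there was known when the list was drawn up, so these counts support nothing. They were 1 by DESeq2 for testes minus ovaries and for XY-Sry minus XY- (19 and 36 genes in all, against 2 and 0 by edgeR), and 1 without a cohort term for testes minus ovaries and for XXSry minus XY- (-0.24). Leaving out 1 library gave 0 to 1 for testes minus ovaries (9 of 48 libraries: XY- control replicates 6, 16, 36 and 44, stressed XX 9 and 25, stressed XY-Sry 23, stressed XY- 31 and XY-Sry control 33) and 0 to 1 for XY-Sry minus XY- (XY-Sry control 33). For the PFC this gave 0 to 1 for XXSry minus XY- (11 of 48: stressed XXSry 4 and 12, XY- control 5, 16 and 19, stressed XY-Sry 8 and 23, stressed XY- 14 and 31, stressed XX 20 and XXSry control 39). The cause of these changes was not tested. No called value changed sign. The median of all genes shifted by less than 0.1 under each scaling. With 5 to 7 animals a group, differences within a genotype are known only to their intervals.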
